A study of Mus musculus with 9 samples.

Results

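Integrins are the receptors with which leukocytes hold on to other cells and to matrix, and ICAM-1 is a ligand of members of their β2 family. The genes described here are 9 integrin subunits and Icam1, 10 of the 55655 rows in each of the deposited tables of FPKM (fragments counted per length of transcript and per depth of library). They were chosen by gene symbol, as leukocyte integrins and their best known ligand, and the rule names no level. RNA-seq was carried out on 9 libraries of bone marrow-derived macrophages (BMDMs) flushed from the femur and tibia of wild-type C57BL/6 mice aged 6 to 8 weeks. M-CSF at 10 ng/mL was given to all cells for 7 days, which turns marrow precursors into resting M0 macrophages. The M0 group (n = 3) stayed at this state. The M1 group (n = 3) was polarized with LPS, a bacterial cell wall component, together with IFN-γ, and examined after 12 hours. The M1+PBM group (n = 3) received the same induction and photobiomodulation (PBM), which is irradiation with low-level near-infrared light. The question of the study was how PBM changes classically activated macrophages, and M0 libraries serve here as the resting reference. The labels do not say whether replicates came from separate mice or cultures, so the p-values measure only the spread between these libraries. The paper describes its mice as male. Part of that spread is not technical, since sex-linked transcripts differed between replicates 2 and 3.

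An integrin is a pair of 1 α and 1 β subunit, and the partners it can form decide what it binds. The β2 subunit (Itgb2, CD18) pairs with Itgal (CD11a, the α chain of LFA-1), Itgam (CD11b, the α chain of Mac-1), Itgax (CD11c) or Itgad. The pairs with Itgal, Itgam and Itgax bind ICAM-1, and those with Itgam and Itgax also bind complement fragments and fibrinogen. The β1 subunit (Itgb1) pairs among others with Itga4, a receptor of VCAM-1 and fibronectin, and with Itga5, the classical fibronectin receptor, while Itgav forms vitronectin receptors with Itgb3 and further β chains. Icam1 is known as an NF-κB target that is induced by LPS, TNF and IFN-γ in many cell types.

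The sequence upstream of a gene bears on this because LPS acts through NF-κB and IFN-γ through factors that bind gamma-activated sequences. RefSeq promoter entries (GRCm38.p6) were matched by symbol for 7 of the 10 genes, and the 250 bases before the annotated start were searched on both strands for GGANNTTCC (the ends of NF-κB sites), TTCNNNGAA (gamma-activated sequence), GAGGAA (core of sites of the myeloid factor PU.1) and TGANTCA (AP-1). Among 32851 promoters of that length, 3.59%, 7.02%, 23.3% and 6.75%, respectively, held a match. The promoters of Icam1 (chr9:21015690-21015939, plus strand), Itga5 (chr15:103366792-103367041, minus strand), Itgam (chr7:128062390-128062639, plus strand) and Itgax (chr7:128129300-128129549, plus strand) are shown 5′ to 3′ because these are a gene far above its resting level in M1 cells, a second gene above it, the Mac-1 chain that overlapped between the groups and a gene lower on average in M1 cells. Matches are in capitals.
Icam1: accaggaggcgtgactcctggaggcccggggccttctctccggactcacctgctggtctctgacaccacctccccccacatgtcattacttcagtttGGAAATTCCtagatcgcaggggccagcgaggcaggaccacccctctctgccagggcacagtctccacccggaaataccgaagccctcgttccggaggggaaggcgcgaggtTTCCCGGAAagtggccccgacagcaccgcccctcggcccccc
Itga5: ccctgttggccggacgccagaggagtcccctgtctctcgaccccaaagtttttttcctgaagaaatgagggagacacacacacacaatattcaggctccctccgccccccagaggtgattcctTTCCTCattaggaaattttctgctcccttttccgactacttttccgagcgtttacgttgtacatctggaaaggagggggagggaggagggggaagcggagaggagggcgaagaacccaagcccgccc
Itgam: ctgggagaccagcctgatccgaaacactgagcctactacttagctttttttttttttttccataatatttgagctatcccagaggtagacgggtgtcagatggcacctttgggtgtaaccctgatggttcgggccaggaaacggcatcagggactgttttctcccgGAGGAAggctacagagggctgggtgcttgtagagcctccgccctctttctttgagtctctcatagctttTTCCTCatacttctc
Itgax: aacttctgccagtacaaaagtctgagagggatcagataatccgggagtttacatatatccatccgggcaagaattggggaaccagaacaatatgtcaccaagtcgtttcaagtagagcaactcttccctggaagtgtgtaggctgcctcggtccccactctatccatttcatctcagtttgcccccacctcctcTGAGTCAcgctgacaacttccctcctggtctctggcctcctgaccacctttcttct
Icam1 held GGAAATTCC with its leftmost base at position -153, counted from the annotated start, and TTCCCGGAA at -42. The GGAAATTCC match reads as a match on both strands, and the matches did not overlap each other. Of the 7 promoters only that of Icam1 matched GGANNTTCC or TTCNNNGAA. Itgal, Itgb2 and Itgb3 had no promoter entry and were not searched. Itgam held GAGGAA at -84 and its reverse complement TTCCTC at -15, and Itga5 held TTCCTC at -127. Among the searched promoters not shown, Itgav held GAGGAA at -218 and TTCCTC at -7, and Itgb1 held GAGGAA at -9. The window of Itgax held TGAGTCA at -56. A match of letters is not a binding site, and no binding was measured in these cells.

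The cells carried the markers of their label. All 8 macrophage markers examined, among them Adgre1 (F4/80), Csf1r and Cd68, were at 1 FPKM or more in every group, and the 8 markers of M1 induction together summed to 1022 to 1285 FPKM in M1 libraries, 635 to 925 in M1+PBM libraries and 26.9 to 283 in M0 libraries. All 8 dendritic cell markers and all 8 lymphoid markers stayed under 1 FPKM in every library, and 8 of 10 neutrophil markers did so, with Ly6g and S100a9 listed at 0 throughout. The neutrophil sum was 1.61 to 2.51 FPKM in M0, 8.94 to 28.1 in M1 and 6.44 to 15.2 in M1+PBM, nearly all of it S100a8.

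Libraries of the same group were not alike. M0 replicate 3 stood apart from M0 replicates 1 and 2, with a Tnf level of 233 FPKM against 16.9 and 14.9 and a Col1a1 level (type I collagen, a stromal gene) of 123 FPKM against 4.44 and 3.44. The 8 stromal markers summed to 231 FPKM in that library, against 7.48 to 31.4 in the 8 others. The sex-linked genes also differed by replicate number. Xist, which is expressed from the inactive X chromosome, was at 55.7 and 64.8 FPKM in replicate 3 of M1 and M1+PBM, where the Y-linked Ddx3y was listed at 0. Replicate 2 of both groups had the opposite pattern, with Ddx3y at 5.77 and 5.64 FPKM and Xist at 0.0015 and 0.0013. Replicate 1 of both groups carried both transcripts, as did M0 replicate 1, whereas M0 replicates 2 and 3 carried Ddx3y with Xist under 0.01 FPKM. The paper states that it used only male mice, which the sex-linked levels in replicate 3 of M1 and M1+PBM do not match. The liver gene Alb reached 9.01 FPKM in M1 replicate 2 and was listed at 0 in the other 8 libraries. For the 10 genes the difference of M1 from M0 is therefore also given without M0 replicate 3 and within the libraries whose Xist level was under 1 FPKM, a choice made after the data were seen. The M0 values were deposited apart from the others and may have been normalized apart, so the comparisons with M0 are descriptions with no test. Depth, estimated from the spacing of low values, was 30880000 to 41940000 fragments per library. The search covered a limited range, and the depth would be higher if the steps were parts of a fragment.

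In resting cells the order of levels per transcript length was led by Itgb2 at 348.9 ± 79.6 FPKM (SD, n = 3), followed by Itgb1 at 116 ± 4.04, and neither overlapped its lower neighbour. Below them Itgax, Itga5 and Itgam, at means of 59.8, 55.9 and 52.1 FPKM, could not be ordered beyond the spread of the libraries, nor could the lower genes down to Itgb3 at 7.38 ± 4.06. In M1 cells Itgb2 again led, at 261 ± 18.8 FPKM. Itga5, Icam1, Itgb1 and Itgal followed at 174, 152, 145 and 110 FPKM, with neighbours overlapping. Icam1 and Itgal thus moved from the lower part of the order to the level of Itgb1, while Itgb3 stayed last at 0.80 ± 0.74 FPKM and did not overlap Itgav above it. In M1+PBM the 10 genes stood in the same order by mean as in M1, from Itgb2 at 264 ± 23.0 to Itgb3 at 0.39 ± 0.076 FPKM.

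**Figure D1:**
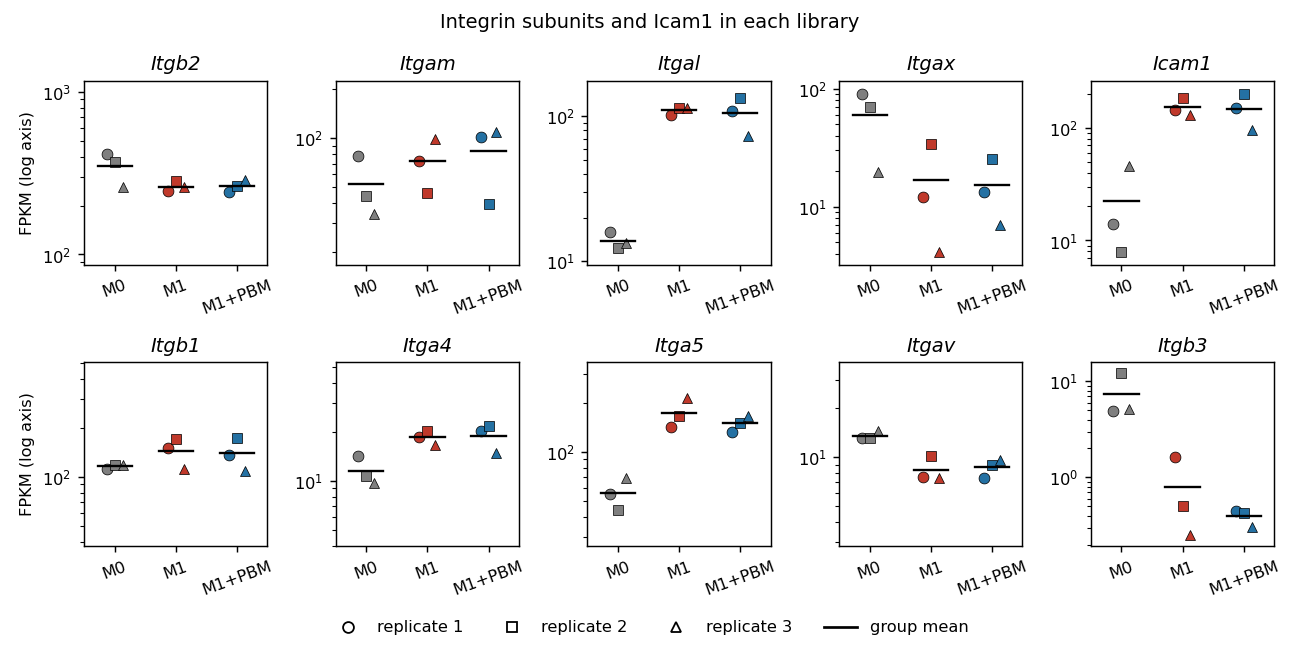
FPKM of the 10 genes on a log axis in each library of M0, M1 and M1+PBM, with circles, squares and triangles for replicates 1 to 3 and a line at the group mean. Itgal, Itga5 and Icam1 lie higher in every M1 and M1+PBM library than in any M0 library and Itgb3 lies lower, whereas M1 and M1+PBM overlap for all 10 genes.

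Against M0, 3 of the 10 genes were at least 2-fold higher in M1 without overlap of the libraries (Icam1, Itgal and Itga5) and 1 was lower (Itgb3). A minimum of 1 FPKM in 3 or more of the 9 libraries kept 13915 rows, of which 7.81% were higher and 13.7% lower by this rule. M1+PBM gave the same 4 genes against the same M0 libraries, with 7.13% of rows higher and 10.3% lower. With no requirement on size, 6 of the 10 genes did not overlap between M0 and M1, against 66.3% of rows. All 10 passed the minimum level, Itgb3 only through the M0 libraries in which it was high. The median difference over all rows was -0.34 on the log2(FPKM + 1) scale for M1 against M0 and -0.27 for M1+PBM against M0, and the median over the 10 genes was 0.39 and 0.43. After median-of-ratios scaling the row medians came to -0.067 and -0.059, and the 4 genes and their directions were the same.

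Icam1, the ligand, was at 13.9, 7.88 and 45.3 FPKM in M0 replicates 1 to 3, at 142, 184 and 129 in M1 and at 149, 199 and 94.4 in M1+PBM. The highest resting value was that of M0 replicate 3, and every polarized library was above it. The difference of M1 from M0 was 3.04 on the log2(FPKM + 1) scale (8.24-fold), and that of M1+PBM from M0 was 2.95. Without M0 replicate 3 the difference of M1 came to 3.71 (13.1-fold), and within the libraries of low Xist, of which M1 has 1, to 3.19. Its promoter letters matched both the NF-κB and the gamma-activated patterns, and whether these matches bear on its level was not tested. Itgal, the other member far above its resting level, had no promoter entry to search.

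Itgal, which with Itgb2 makes the ICAM-1 receptor LFA-1, was at 15.8, 12.2 and 13.3 FPKM in M0. It was at 102, 115 and 114 FPKM in M1 and at 109, 135 and 73.4 in M1+PBM. M0 replicate 3 did not stand apart for this gene, and the M0 and polarized libraries lay far from each other. The log2 difference of M1 from M0 was 2.92 (7.55-fold) with all libraries, 2.90 without M0 replicate 3 and 3.07 within the low-Xist libraries. That of M1+PBM from M0 was 2.82. The 8 lymphoid markers, of cells in which LFA-1 is also abundant, summed to at most 0.87 FPKM in M0 and 0.28 in M1.

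Itgax, which encodes CD11c, was at 89.4, 70.3 and 19.8 FPKM in M0, at 12.1, 34.2 and 4.18 in M1 and at 13.2, 25.3 and 7.08 in M1+PBM. The mean was 3.83-fold lower in M1 than in M0 on the log2(FPKM + 1) scale (a difference of -1.94), but M0 replicate 3 overlapped M1 replicate 2. Without M0 replicate 3 the difference was -2.59 with no overlap, and without M1 replicate 2 it was -2.63, also with no overlap. Within the libraries of low Xist, M0 replicates 2 and 3 against M1 replicate 2, it was -0.13. The M1 value lay between the M0 values there, as did that of M1+PBM replicate 2, so no direction is read from them. For M1+PBM the difference from M0 was -1.82 with all libraries, -2.47 without M0 replicate 3 and -0.55 within the low-Xist libraries. Dendritic cells, whose usual marker is CD11c, had markers that summed to at most 1.25 FPKM in any library.

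Itgam, the α chain of Mac-1, was at 77.5, 44.4 and 34.3 FPKM in M0, at 72.1, 46.2 and 99.5 in M1 and at 103, 39.3 and 109 in M1+PBM. The groups overlapped. The log2 difference of M1 from M0 was 0.49, 0.23 without M0 replicate 3, 0.24 within the low-Xist libraries and 0.83 after median-of-ratios scaling. That of M1+PBM was 0.62 with all libraries and 0.011 within the low-Xist libraries. Without M1+PBM replicate 2 it was 1.09 and the libraries no longer overlapped.

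The common partner Itgb2 did not overlap the level of any other member in any group, and it was lower rather than higher on average in polarized cells. It was at 416, 369.6 and 261 FPKM in M0, at 244, 282 and 258 in M1 and at 241.5, 263 and 287 in M1+PBM. M0 replicate 3 lay within the M1 range and the other M0 libraries above it. The log2 difference of M1 from M0 was -0.39, -0.59 without M0 replicate 3 and -0.14 within the low-Xist libraries, and after median-of-ratios scaling it was -0.044.

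Because each β2 partner competes for the same β chain, their transcripts were also set against each other within each library, which does not depend on how libraries were scaled. Itgal made up 8.63%, 9.58% and 19.7% of the summed FPKM of Itgal, Itgam, Itgax and Itgad in M0, and 54.7%, 58.7% and 52.4% in M1. Itgax made up 48.8%, 55.1% and 29.3% in M0 and 6.51%, 17.5% and 1.92% in M1. Resting cells thus carried mostly Itgax and Itgam transcripts, at mean shares of 44.4% ± 13.5 and 42.6% ± 8.01 (SD, n = 3), and M1 cells mostly Itgal and Itgam, at 55.3% ± 3.19 and 36.0% ± 11.2. Neither the Itgal nor the Itgax shares overlapped between M0 and M1, and the Itgam shares did. Itgad was under 0.6% in every library. The summed α partners stood at 0.44, 0.35 and 0.26 of the Itgb2 level in M0 and at 0.76, 0.69 and 0.85 in M1. In M1+PBM these ratios were 0.93, 0.76 and 0.66.

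**Figure D2:**
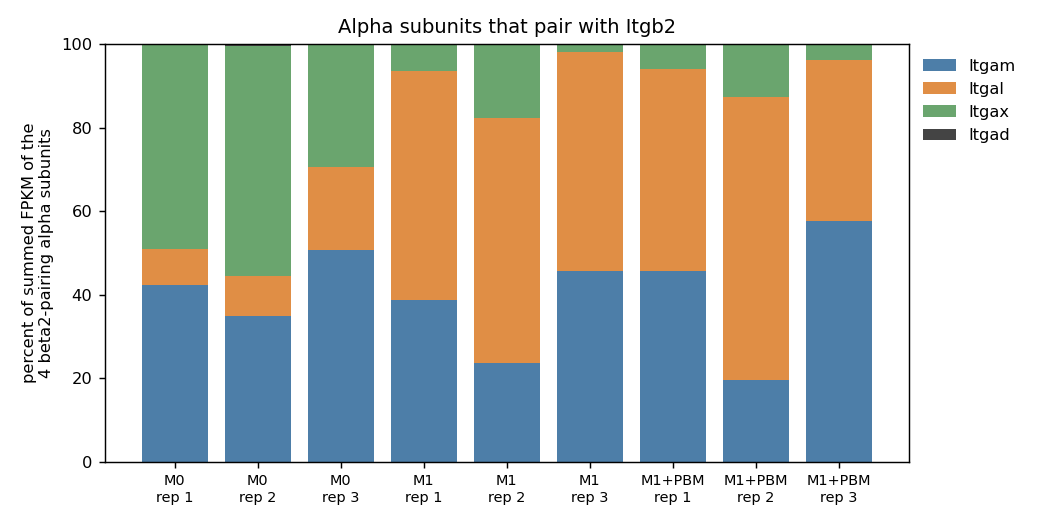
Percent of the summed FPKM of the 4 α subunits that pair with Itgb2, as 1 stacked bar per library. Itgal takes 8.63% to 19.7% in M0 and 38.6% to 67.6% in the 6 polarized libraries, and Itgam is lowest and Itgax highest in replicate 2 of both M1 and M1+PBM.

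Among the β1 partners, Itga5 was at 54.9, 43.7 and 69.2 FPKM in M0, at 141, 167 and 213 in M1 and at 133, 151 and 167 in M1+PBM. Every polarized library was above every resting one. The log2 difference of M1 from M0 was 1.62 (3.08-fold), 1.79 without M0 replicate 3 and 1.58 within the low-Xist libraries, and that of M1+PBM was 1.43. Itga4 was at 14.2, 10.6 and 9.72 FPKM in M0, at 18.7, 20.2 and 16.7 in M1 and at 20.3, 21.7 and 14.9 in M1+PBM. It did not overlap between M0 and M1, but its difference of 0.66 (0.55 without M0 replicate 3) was under 2-fold. After median-of-ratios scaling the difference was 0.98, still under 2-fold. Within the low-Xist libraries it was 0.93 for M1 and 1.02 for M1+PBM, which passed the 2-fold limit. Itgb1 itself was at 111, 118 and 118 FPKM in M0 and at 151, 172 and 111 in M1, which overlapped. Its difference was 0.29, 0.31 without M0 replicate 3, 0.53 within the low-Xist libraries and 0.64 after median-of-ratios scaling. In M1+PBM Itgb1 was at 136, 173 and 109. The α chain of the fibronectin receptor was thus higher in every polarized library, while its β chain overlapped.

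Itgav and Itgb3, the chains of a vitronectin receptor, were lower in polarized cells. Itgav was at 13.1, 13.1 and 14.6 FPKM in M0, at 7.57, 10.2 and 7.43 in M1 and at 7.45, 8.95 and 9.64 in M1+PBM. Each polarized library was lower than each resting one, by 0.64 on the log2 scale for M1 and 0.60 for M1+PBM, under 2-fold. For M1 the difference was -0.60 without M0 replicate 3, -0.40 within the low-Xist libraries and -0.33 after median-of-ratios scaling. Itgb3 was at 4.88, 12.1 and 5.19 FPKM in M0, at 1.64, 0.50 and 0.25 in M1 and at 0.45, 0.42 and 0.31 in M1+PBM. On the log2(FPKM + 1) scale the difference of M1 was -2.20 (4.58-fold lower), with -2.36 without M0 replicate 3 and -2.59 within the low-Xist libraries, and that of M1+PBM was -2.49. With a pseudocount of 0.1 in place of 1, which weighs low values more, the difference of M1 was -3.26. Estimated from the longest transcript, 45 to 2396 fragments stood behind the Itgb3 values, the fewest among the 10 genes. Itgb3 marks platelets and osteoclasts too. The platelet partner Itga2b was at 0.16 FPKM or less everywhere and the 8 platelet markers summed to 15.4 to 22.5 FPKM in M0 and 14.6 to 28.1 in M1, most of it Pf4. The 8 osteoclast markers summed to 102 to 289 FPKM in M0 and 75.1 to 179 in M1, with Atp6v0d2 at 121.6, 226 and 39.5 in M0 and 20.5, 37.7 and 5.82 in M1. Of the 6 osteoclast markers measured, 3 were lower in M1 than in M0 (Atp6v0d2, Dcstamp and Nfatc1). Acp5 was higher by 2.49 on the log2 scale, and 2 passed neither way. Over all rows 13.7% were lower and 7.81% higher by the same rule. After median-of-ratios scaling only Dcstamp of these markers was still lower, and within the low-Xist libraries only Atp6v0d2. Without M0 replicate 3 all 3 were lower, and Acp5 was higher under each of these choices. M0 replicate 2 was highest in both Itgb3 and Atp6v0d2, and whether such cells had a part in the Itgb3 level was not tested. In RNA from whole cultures, fewer cells of a type and less RNA per cell cannot be told apart.

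**Figure D3:**
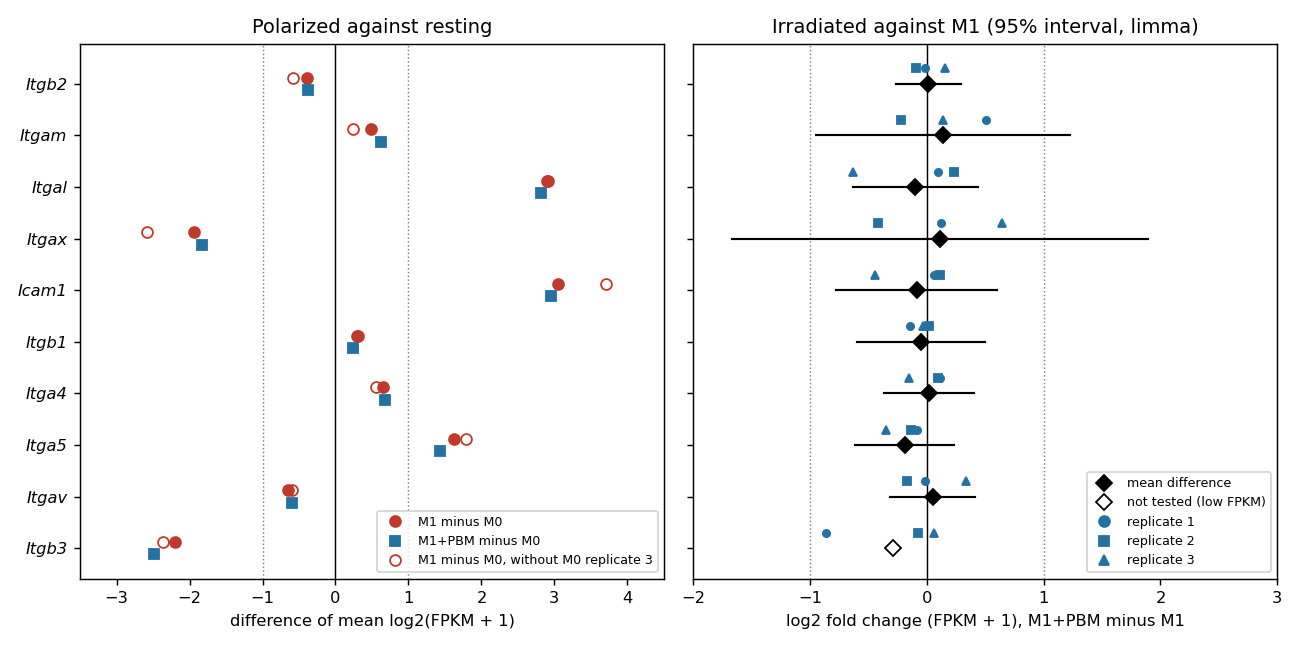
Left, differences in mean log2(FPKM + 1) of M1 and M1+PBM from M0, with open circles for M1 without M0 replicate 3 and dotted lines at 2-fold. Right, M1+PBM minus M1 with 95% limma intervals and the difference within each replicate number as small symbols, where all intervals of the 9 tested genes include 0 and that of Itgax is widest.

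Irradiation was set against M1 in a limma fit over 12238 rows. None of the 9 members tested passed an unadjusted p of at most 0.05 together with a 2-fold change, a rule that 0.261% of rows met, and none had an unadjusted p of at most 0.05, which 4.44% of rows had. None had an adjusted p under 0.05, against 0.00817% of rows, which is 1 row. Itgb3 was under the minimum level and was not tested. The M1 and M1+PBM libraries overlapped for all 10 genes, while 8.51% of the tested rows were higher without overlap and 2.52% lower. The median log2 fold change was 0.013 over the 9 genes and 0.058 over all tested rows, and 5 of the 9 were above 0. The replicate block left all 9 above an unadjusted p of 0.05.

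How far a change can be bounded differed between the genes. Itgb2 was bounded most tightly, with a log2 fold change of 0.013 (SE 0.12) and a 95% interval of -0.27 to 0.29. Itgav and Itga4 followed, at 0.048 with an interval of -0.32 to 0.41 and 0.018 with one of -0.37 to 0.40. For these 3 genes a 2-fold change in either direction lay outside the interval. That was also so for Itga5 at -0.19 (-0.62 to 0.23), Itgb1 at -0.054 (-0.60 to 0.49), Itgal at -0.10 (-0.64 to 0.43) and Icam1 at -0.090 (-0.78 to 0.60). It was not so for Itgam at 0.14 (-0.95 to 1.23) or Itgax at 0.11 (-1.67 to 1.89). The adjusted p of limma was 0.90 for Itga5 and 0.95 to 0.98 for the other 8. Exact two-sided permutation tests of 3 against 3 libraries, which cannot go below 0.1, gave p between 0.5 for Itga5 and 1.0 for Icam1 over the 10 genes.

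The wide intervals of Itgam and Itgax came with a pattern by replicate number. In both M1 and M1+PBM, Itgam was lowest in replicate 2 (46.2 and 39.3 FPKM) and highest in replicate 3 (99.5 and 109). Itgax had the reverse order, highest in replicate 2 (34.2 and 25.3 FPKM) and lowest in replicate 3 (4.18 and 7.08). Replicate 3 was the library with Xist and no Ddx3y in both groups. In M0, replicate 3 had Ddx3y at 6.59 FPKM and Xist at 0.0077. Itgax (19.8 FPKM) and Itgam (34.3) were both lowest in that library among the M0 libraries. Whether the sex of the mice had a part in these levels was not tested. With the replicate number as a block, the intervals narrowed to -0.26 to 0.54 for Itgam and -0.44 to 0.67 for Itgax. The labels name no pairs, and the block was chosen from these same data. The narrower intervals, which leave out a 2-fold change, therefore hold only if the replicate numbers are true pairs. Within replicate numbers the differences had no common sign, at 0.50, -0.23 and 0.13 for Itgam and 0.12, -0.42 and 0.64 for Itgax in replicates 1 to 3. Itga5 was the one gene lower in M1+PBM in each of the 3 replicate numbers, by -0.085, -0.14 and -0.35, and its blocked fit had an unadjusted p of 0.084 and an adjusted p of 0.58 by limma. Icam1 and Itgal were above M1 in replicates 1 and 2 and below it in replicate 3, by -0.44 and -0.63.

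The shares of the β2 partners did not separate the groups either. Itgal made up 48.4%, 67.6% and 38.6% of the sum in M1+PBM replicates 1 to 3, a mean of 51.5% ± 14.7 against 55.3% ± 3.19 in M1 (n = 3, exact permutation p = 0.7). For Itgam the means were 41.0% ± 19.4 and 36.0% ± 11.2 (n = 3, exact permutation p = 0.7), and for Itgax 7.42% ± 4.65 and 8.64% ± 8.00 (n = 3, exact permutation p = 0.8). The ratio of the α sum to Itgb2 was 0.78 ± 0.14 against 0.77 ± 0.076 (n = 3, exact permutation p = 1.0). These are 4 of 5 such tests, the other being Itgad with p = 1.0 by the same exact test.

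The other integrin subunits filled in which partners were on hand. Of 18 further subunits, 12 were under 1 FPKM in all 9 libraries and 5 passed the minimum level. Itgb8, a β chain that pairs with αv and activates latent TGF-β, was at 0.057 to 0.15 FPKM in M0 and 3.43 to 3.97 in M1, a log2 difference of 2.10. Itgb5, another αv partner, was at 90.4, 104 and 48.8 FPKM in M0 and at 15.9, 22.3 and 13.0 in M1, a difference of -2.15. So 2 of the αv partners, Itgb3 and Itgb5, were lower in M1 and Itgb8 was higher. Itga6, a laminin receptor chain, was at 20.8, 13.0 and 13.5 FPKM in M0 and at 3.18, 1.01 and 2.25 in M1, a difference of -2.44. Itga9, named after its values were seen, was higher by 1.37, and Itgb7, the alternative partner of Itga4, ranged from 1.00 to 13.9 FPKM within M0 and overlapped M1. By at least 2-fold without overlap, 2 of the 5 were higher and 2 lower, against 7.81% and 13.7% of all rows. Itgb8 passed the minimum level only through the polarized libraries in which it was high, so its place among the 5 and its call are tied together. The 4 calls among these subunits were the same after scaling and without M0 replicate 3, and that of Itga9 was lost within the low-Xist libraries.

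In M1+PBM, Itgb5 was at 25.0, 22.2 and 25.3 FPKM and Itgb8 at 2.03, 3.43 and 1.35. Against M1, Itgb5 had a log2 fold change of 0.51 (SE 0.19, unadjusted p = 0.036) and Itgb8 of -0.57 (SE 0.23, unadjusted p = 0.043), both with an adjusted p of 0.90 by limma. The M1 and M1+PBM libraries overlapped for both genes. With the replicate block their unadjusted p was 0.047 and 0.051. An unadjusted p of at most 0.05 was met by 4.44% of all tested rows. None of the 5 tested subunits of this list passed the thresholds or the adjusted test.

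The proteins that switch integrins on and tie them to actin were described by a list of 27 genes, of which 22 passed the minimum level. The list median was -0.24 for M1 against M0, where all rows had -0.34. By at least 2-fold without overlap, 0 genes were higher in M1 and 6 lower, against 7.81% and 13.7% of all rows. This split did not hold under another scaling: after median-of-ratios scaling 2 were higher (Fermt3 and Rap1b, named after their values were seen) and 2 lower (Cytip and Actn1). Without M0 replicate 3 it was 1 higher and 4 lower, and within the low-Xist libraries 0 and 3. As deposited, the 3 largest differences were those of Cytip (-1.77), a regulator that restrains LFA-1 adhesion and that passed the minimum level only through M0, Actn1 (-1.39), an actin cross-linker, and Rassf5 (-1.21), the RAPL adaptor through which Rap1 acts on LFA-1. Rassf5 was at 10.1, 8.97 and 10.2 FPKM in M0 and at 3.35, 3.82 and 3.74 in M1. In M1+PBM it was at 5.04, 4.79 and 7.35 FPKM, higher than every M1 library, with a log2 fold change of 0.52 (SE 0.16, unadjusted p = 0.015, limma adjusted p = 0.90). Skap2, an adaptor in the same route, had 0.31 (SE 0.094, unadjusted p = 0.015) and Parvg, a parvin of leukocytes, 0.40 (SE 0.17, unadjusted p = 0.048), with the same adjusted p of 0.90 by limma. These 3 of 21 tested genes had an unadjusted p of at most 0.05, against 4.44% of all tested rows. None passed the 2-fold limit or the adjusted test. With the replicate block 3 genes were higher (Rassf5, Skap2 and Fyb) and 2 lower (Vcl and Zyx) at that p. Parvg was not among them. Without the block, 16 of the 21 tested genes had a log2 fold change above 0. The list median was 0.068, near the 0.058 of all tested rows.

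The kinases next to integrins were mostly higher in M1. Of 8 measured, 5 were at least 2-fold higher than in M0 without overlap and 0 lower, with a median of 1.28. Over all rows 7.81% were higher and 13.7% lower by this rule, with a median of -0.34. Src was at 4.59, 5.24 and 6.26 FPKM in M0 and at 22.4, 36.1 and 11.9 in M1, a log2 difference of 1.82. Syk, which β2 integrins engage through ITAM adaptors, was at 57.6, 64.7 and 51.8 FPKM in M0 and at 161, 180.3 and 145 in M1, a difference of 1.47. These 5 genes passed after scaling and without M0 replicate 3, and 4 of them, all but Fgr, within the low-Xist libraries. In M1+PBM, Syk was at 171, 190.1 and 119.5 FPKM, and none of the 8 kinases had an unadjusted p of at most 0.05 against M1, where their median was 0.023.

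Of 19 further ligands and counter-receptors, 10 passed the minimum level, 3 were higher in M1 than in M0 and 1 was lower. Over all rows 7.81% were higher and 13.7% lower by the same rule. C3, the complement component whose fragment iC3b binds Mac-1, was at 8.44, 6.79 and 61.1 FPKM in M0 and at 421, 322 and 443 in M1, a log2 difference of 4.56. Thbs1 (thrombospondin-1), a ligand of αv integrins and CD47, was at 4.29, 4.21 and 30.5 FPKM in M0 and at 75.1, 42.2 and 191 in M1, a difference of 3.17. For both genes M0 replicate 3 was the highest resting library, and without it the differences were 5.52 and 4.03. Mfge8, a bridge between αv integrins and dying cells, was lower by 1.79 on the log2 scale, at 99.9, 203 and 107 FPKM in M0 and 28.8, 81.8 and 20.6 in M1. Mfge8 no longer passed after median-of-ratios scaling or within the low-Xist libraries. Cd47, named after its values were seen, was higher by 1.10.

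Against M1, none of the 8 tested ligands had an unadjusted p of at most 0.05. Thbs1 was at 35.5, 21.7 and 97.1 FPKM in M1+PBM, a log2 fold change of -0.99 (SE 0.70) with an adjusted p of 0.90 by limma. With the replicate block its SE was 0.075 and its unadjusted p 6.4e-05, and its adjusted p was 0.36. The value was lower in M1+PBM in 3 of 3 replicate numbers. Thbs1 was singled out after its values were seen.

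Among 12 other leukocyte adhesion molecules, 11 passed the minimum level, 1 was higher in M1 than in M0 and 2 were lower. These shares lie near the 7.81% and 13.7% of all rows. The lower genes were Cd9 and Cd81, membrane tetraspanins, while the tetraspanins Cd63 (-0.47), Cd151 (-0.62) and Cd82 (0.42), named after their values were seen, did not pass. Cd9 was at 161, 151 and 104 FPKM in M0 and at 30.2, 36.8 and 15.0 in M1, a log2 difference of -2.37, and Cd81 differed by -2.19. Without M0 replicate 3 these were -2.56 and -1.95. Against M1, the tetraspanin Cd151 was lower in M1+PBM with a log2 fold change of -0.33 (SE 0.12, unadjusted p = 0.029, limma adjusted p = 0.90), and no other gene of the list had an unadjusted p of at most 0.05. With the replicate block 1 gene of the list was higher and 2 were lower at that p, Cd151 among them.

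**Figure D4:**
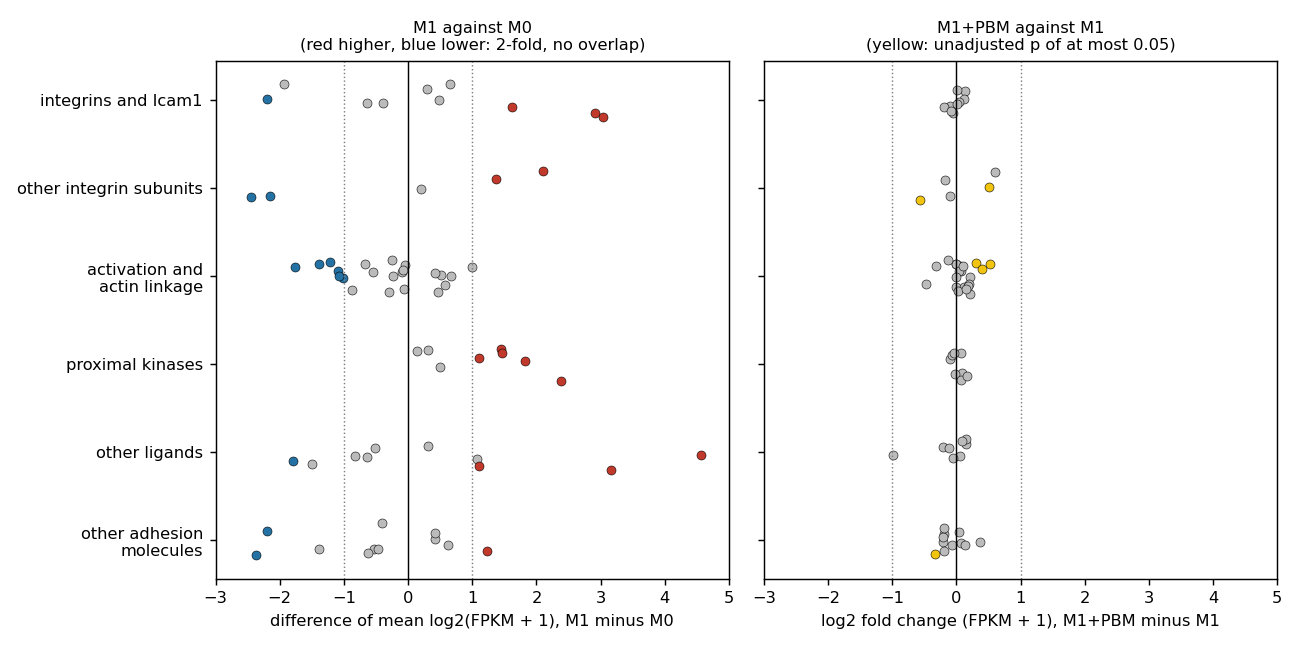
Differences of single genes in mean log2(FPKM + 1), with M1 against M0 on the left and M1+PBM against M1 on the right, grouped by list, with dotted lines at 2-fold. On the left, 5 of 8 kinases are higher and 6 of 22 activation and linkage genes lower as deposited (2 higher and 2 lower after median-of-ratios scaling). Over all rows 7.81% are higher and 13.7% lower as deposited. On the right no gene of these lists reaches 2-fold.

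The rows whose profile over the 9 libraries lay closest to that of Icam1 were found among 13631 rows with a symbol, by the root mean square difference of log2(FPKM + 1) after each row was centred on its own mean. They were Plpp1 at 0.18, Mefv at 0.24 and Ehd1 at 0.26. Itgal, the member subunit with the widest spread of group means on the log2(FPKM + 1) scale, had Il15ra at 0.13, Nt5c3 at 0.22 and the unnamed gene model Gm16094 at 0.23 as its closest rows. Icam1 and Itgal lay 0.59 apart, where Icam1 lay 0.90 from Itga5, 1.56 from Itgam and 2.60 from Itgax. Many other rows lay closer, since Itgal ranked 134 by distance from Icam1, and Icam1 ranked 272 by distance from Itgal. The distances are a description over libraries that share their 3 groups.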

How the data were processed

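RNA-seq libraries were strand-specific by the labels and sequenced on an Illumina HiSeq instrument. FPKM was the unit the authors deposited, in separate tables of 55655 rows for M0 (3 libraries) and for M1 and M1+PBM (6 libraries). No column stayed unused (0), and the paper's methods name Cufflinks for such values. The submitters' processing notes name mm9 and Bowtie 0.12.2 without a role. Symbols were taken from GENCODE M21, and promoter sequences from RefSeq on GRCm38.p6. The tables hold no coordinates. Spacing of low values put depth near 30880000 to 41940000 fragments per library (36.5% to 39.3% of low values lay within 0.05 of a whole fragment, 10% if even), so whole reads were not recovered and no count test was run.

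The comparison of irradiated with unirradiated M1 cells used limma 3.58.1 in R 4.3.3 (eBayes with trend) on log2(FPKM + 1). A minimum of 1 FPKM in 3 or more of the 6 libraries left 12238 rows, with Benjamini-Hochberg adjustment. In data simulated for this comparison, 200 of 12238 genes were changed by a log2 size of 1.5 to 3. The thresholds (p of at most 0.05 and 2-fold) recovered 98% of them, and an adjusted p under 0.05 recovered 88%. The thresholds also passed 40 unchanged genes, against 32 rows in the real data. Noise was drawn separately for each library, without the deviations that same-numbered libraries shared. Smaller changes, such as those of the members, were not simulated, so the recovery does not extend to them. Fold changes on the log2(FPKM + 1) scale understate those of low genes. Permutation tests were exact. M0, in its own table, was compared without a test.

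Members and lists were chosen with earlier results of these data known. All 10 members are named, and of each other list up to 3 genes, those with the largest difference among genes past the rule of a comparison. Some genes that this rule names are not reported here. Genes named otherwise are said to be so in the text, and Fyb, Vcl, Zyx, Nfatc1 and the sex-linked, liver and stand-apart marker genes were also named after their values were seen. Same-numbered M1 and M1+PBM libraries deviated together (r of 0.157, 0.469 and 0.462 over tested rows, against -0.491 to 0.0328 between different numbers), so the numbers were taken as pairs from the data and a fit with the replicate block was made. Further alternatives were median-of-ratios scaling, a pseudocount of 0.1, dropping the minimum, a minimum set on the mean (5 FPKM), eBayes without trend, Itgad left out of the sum and each library left out in turn. Libraries of low Xist were chosen after the data were seen.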

Additional observations from a re-analysis of the deposited data

How the results depend on the processing

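The counts of members called, and the shares and ratios of the β2 partners, stayed within 1.5 times or within the spread of replicates under every alternative run. Among the differences of single members, 21 values moved and 287 did not. Those that moved were comparisons with M0 after median-of-ratios scaling, within the low-Xist libraries or with a pseudocount of 0.1. With the replicate block 0 of the 9 tested members passed any rule, and 988 rows had an unadjusted p of at most 0.05 against 543 without it. Over all rows that count was also 1318 with no minimum FPKM, 233 with a mean FPKM of at least 5, and 252 to 1092 with 1 library left out (lowest without M1+PBM replicate 1, highest without M1 replicate 2). The thresholds gave 32 rows, against 75 with a pseudocount of 0.1, 67 when M1 replicate 2 was dropped and 89 when M1+PBM replicate 2 was. The adjusted test gave 1 row, and 0 without M1 replicate 1, 2 or 3. Against M0, M1 had 1087 rows higher and 1904 lower, 1444 and 1158 after median-of-ratios scaling, and 3066 lower with a pseudocount of 0.1. M1+PBM had 992 and 1430, 1215 and 954 after scaling, and 2382 lower with a pseudocount of 0.1. The cause was not tested. Leaving out 1 library moved the members called against M0 from 4 to 5 for M1 and up to 6 for M1+PBM. Icam1 ranged from 2.52 without M0 replicate 2 to 3.71 without M0 replicate 3, and Itgax from -2.63 without M1 replicate 2 to -1.25 without M1 replicate 3. Uncalled log2 fold changes of M1+PBM against M1 changed sign with 1 library left out for 8 of the 9 members tested, most widely for Itgax (-0.57 to 0.81) and Itgam (-0.15 to 0.61), and Itga5 stayed below 0 (-0.33 to -0.033). Depth limits Itgb3 most.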
